A study of Mus musculus with 7 samples.

Results

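The genes described here encode the core proteins of the spliceosome and of its small nuclear ribonucleoprotein particles (snRNPs). They are 38 genes chosen by symbol, of 39179 genes in the deposited table, and each symbol matched 1 Ensembl gene ID. All 38 passed the filter on low values that left 12813 genes for testing. They were read in LSK cells, the bone marrow cells without lineage markers that carry Sca-1 and Kit, sorted from mice of strain C57/BL6 at 7 weeks of age. The 3 Jmjd1c libraries came from Jmjd1c f/f Vav1Cre mice, where Cre under the Vav1 promoter, active across blood cells, recombines the floxed gene. The 4 control libraries came from mice with Vav1Cre and no floxed gene in their label, so Cre itself was common to all 7 libraries. Whether the libraries came from separate or pooled animals is not in the labels, so p-values measure the spread among 7 libraries, and that spread may be technical.

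Introns are removed from messenger RNA precursors by the spliceosome, which assembles anew on each intron from 5 snRNPs and many free proteins. U1 marks the start of the intron, while SF1 and the U2AF pair mark its branch point and end. The U2 snRNP, with its SF3A and SF3B subcomplexes, then takes the branch point over from SF1. A pre-formed particle of U4, U6 and U5, the tri-snRNP, joins next and is remodelled into the catalytic centre. A ring of Sm proteins surrounds the RNA of U1, U2, U4 and U5. In human blood disease, SF3B1 and U2AF1 are among the genes most often mutated in myelodysplastic syndromes.

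Of the 38 genes, 7 rose in the Jmjd1c libraries and none fell. They are Sf1 and U2af2, for proteins that bind the branch point and the pyrimidine tract next to it, and 5 others. These are Sf3a1, Sf3a2 and Sf3b4 of the U2 snRNP, the U1 protein gene Snrpa, and the Sm gene Snrpb. Levels of the 7 genes were 1.27 to 1.90 times those of the control libraries, with Sf3a2 at the upper end. The share called, 18.4%, stands beside 1.80% of all tested genes called in either direction and 1.51% called higher (limma, adjusted p under 0.05 over all 12813 genes). The members were chosen with earlier results of these data known, so this contrast is a description only. No member was called without any 1 of Jmjd1c 2, Jmjd1c 3, control 2 and control 3. Nor was any called in limma without its intensity trend or with the replicate number as a block. On GRCm38, as GENCODE M21 gives them, Sf1 lies at chr19:6363690-6378030 on the plus strand, U2af2 at chr7:5062143-5079938 (plus), Sf3a1 at chr11:4160350-4182541 (plus), Sf3a2 at chr10:80798198-80804924 (plus), Sf3b4 at chr3:96172332-96177564 (plus), Snrpa at chr7:27187005-27196271 (minus) and Snrpb at chr2:130171414-130179403 (minus). The other 31 members did not pass, among them all 9 of the tri-snRNP.

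Over the 38 genes the median log2 fold change was 0.05, against -0.01 over all tested genes. The fold change was above 0 for 22 members (beside 48.5% of all tested genes) and below 0 for 16. An unadjusted limma p under 0.05 was reached by 14 members (beside 19.7% of tested genes), 12 of them higher (beside 11.9%) and 2 lower (beside 7.84%). The groups did not overlap in 13 members (beside 16.8%). Every Jmjd1c library lay above every control library in 10 of these, beside 9.74%, and below in 3, beside 7.10%. The summed values of the 38 genes made up 0.611% to 0.626% of the signal in Jmjd1c libraries and 0.542% to 0.601% in control libraries. These sums include the 7 called genes, whose own summed values were 5480 to 6791 in Jmjd1c and 3974.5 to 4625 in control libraries. The separated ranges are therefore no sign of a rise across the other members. In such bulk samples, fewer cells of a type and less RNA per cell cannot be told apart.

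**Figure D1:**
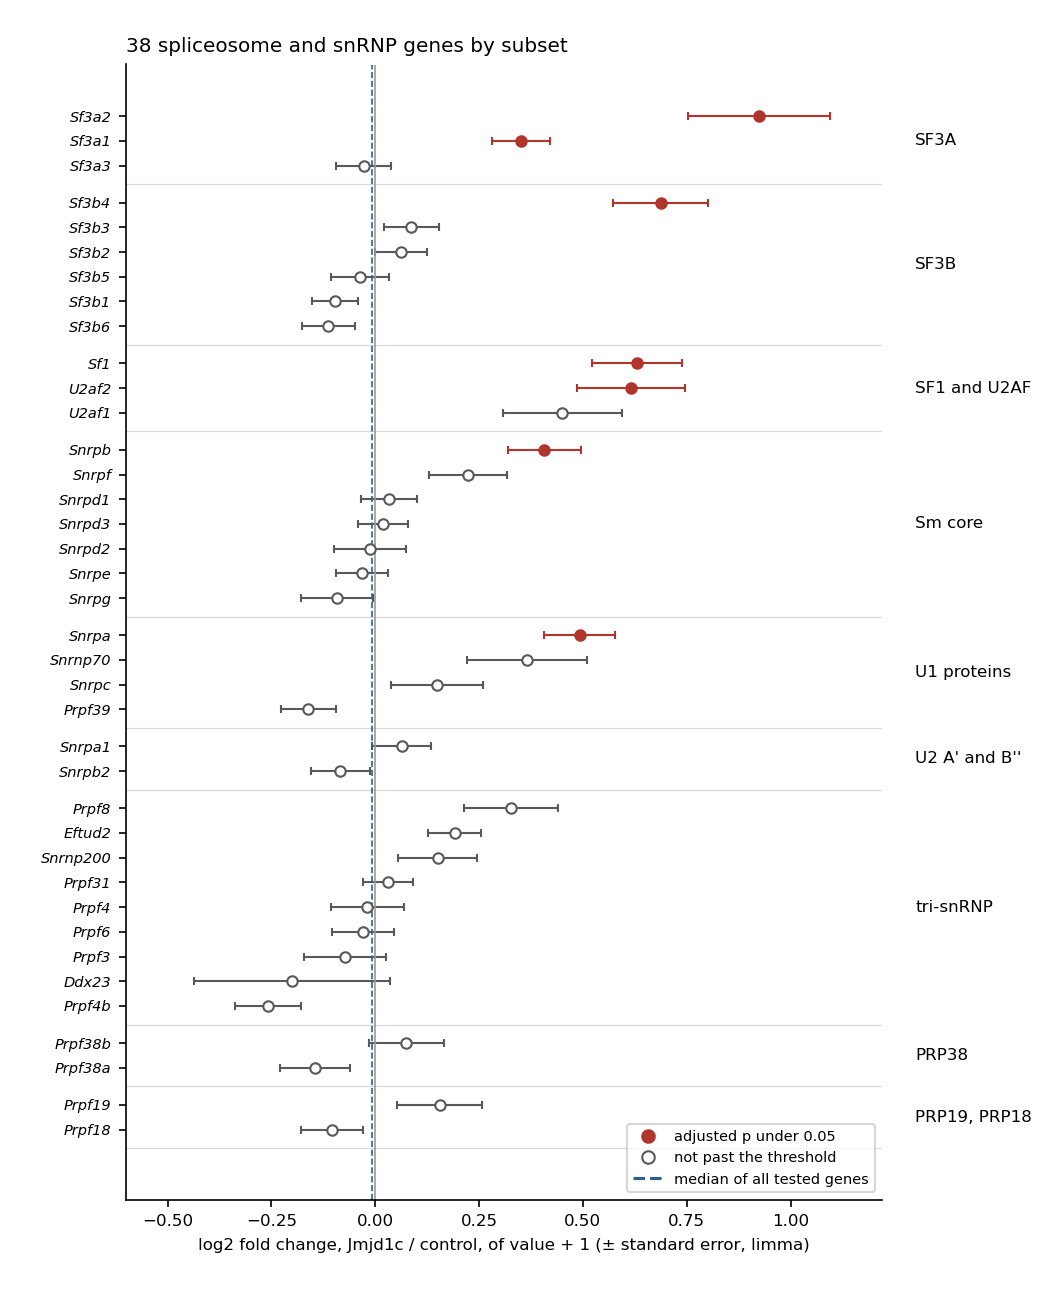
Log2 fold change of value + 1 (Jmjd1c over control, horizontal axis) with the limma standard error for the 38 genes, grouped by the particle they belong to; filled points passed an adjusted p of 0.05 and the dashed line is the median of all tested genes (-0.01). The 7 called genes sit between 0.35 and 0.92, and none of the 9 tri-snRNP genes was called.

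The upstream DNA of the called genes is shown because these genes were higher together. RefSeq start-site windows of GRCm38.p6 were at hand for 30 of the 38 members and for 4 of the 7 called ones, Sf3a1, Sf3a2, Sf1 and Snrpa, the last with 2 starts. The 150 bases before each start are given 5′ to 3′ on the gene's own strand, with matches to the motifs searched, in the letters shown, in capitals. The RefSeq starts do not all match the GENCODE M21 gene ends. The stretches of Sf3a2 and of the second Snrpa start lie wholly inside those genes as GENCODE M21 gives them.
Sf3a1 (chr11:4160204-4160353, plus strand): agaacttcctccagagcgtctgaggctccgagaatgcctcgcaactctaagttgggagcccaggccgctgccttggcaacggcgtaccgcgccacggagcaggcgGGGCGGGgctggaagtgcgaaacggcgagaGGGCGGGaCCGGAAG
Sf3a2 (chr10:80798585-80798734, plus strand): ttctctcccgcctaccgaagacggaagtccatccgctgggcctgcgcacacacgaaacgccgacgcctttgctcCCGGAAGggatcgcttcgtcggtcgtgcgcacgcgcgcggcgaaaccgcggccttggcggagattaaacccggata
Sf1 (chr19:6363540-6363689, plus strand): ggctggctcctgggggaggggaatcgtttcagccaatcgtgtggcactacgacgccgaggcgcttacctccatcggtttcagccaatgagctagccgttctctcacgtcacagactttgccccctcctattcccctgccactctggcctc
Snrpa, first start (chr7:27196272-27196421, minus strand): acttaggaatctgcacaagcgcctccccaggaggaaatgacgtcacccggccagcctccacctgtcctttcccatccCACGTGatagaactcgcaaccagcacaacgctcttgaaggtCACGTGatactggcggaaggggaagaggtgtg
Snrpa, second start (chr7:27195761-27195910, minus strand): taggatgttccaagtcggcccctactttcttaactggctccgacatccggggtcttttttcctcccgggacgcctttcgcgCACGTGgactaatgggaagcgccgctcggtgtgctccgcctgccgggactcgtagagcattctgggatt

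Motifs were searched on both strands in the whole window, 250 bases before to 50 bases after the start. They were the ETS motif CCGGAAG, the E-box CACGTG and the GC box GGGCGGG, which do not contain one another. The ETS letters were in the window of 15 of 30 members (50%), against 20.98% of the 9499 tested genes with a window and 8.86% of all 32851 windows. Of the called genes, Sf3a1 and Sf3a2 held it, at 7 and 76 bases before the start. The E-box was in 3 members (10%, against 11.9% of tested genes), and Snrpa held it 73 and 32 bases before its first start and 69 bases before its second. The GC box was in 43.3% of members and in 51.0% of tested genes. Among the called genes Sf3a1, Sf1 and Snrpa held it, in Sf1 and Snrpa outside the stretch shown. These matches describe the sequence only.

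Jmjd1c itself, which encodes a JmjC-domain protein of the KDM3 histone demethylase family, checks the labels. It had 294, 244 and 254 normalized read counts in Jmjd1c libraries, against 458, 466, 516 and 512 in control libraries. Its log2 fold change was -0.89 ± 0.09 (standard error; limma, adjusted p = 0.00407), and its two-sided exact permutation p was 0.0286, the lowest that 3 against 4 libraries can reach. The value covers all exons, so it can hold reads from outside the deleted stretch. A normalized read count is the deposited value of a gene, its reads scaled by 1 factor per library. Control 4 stood apart over the whole table: it differed from controls 1 to 3 by a chi-square per gene of 15.2, 8.22 and 9.50, while controls 1 to 3 differed among themselves by 3.38 to 4.40 and the Jmjd1c libraries by 3.87 to 7.29. Without control 4, 4 members were called, Sf3a2, Sf3b4, Sf1 and Snrpa, beside 1.58% of all tested genes. Reads recovered per library ran from 4416762 to 6253793 in the Jmjd1c group and from 4303712 to 6436519 in the control group. The 9 markers of LSK and early progenitor cells, Kit, Cd34 and Flt3 among them, summed to 25200 to 28338 in Jmjd1c and 24298 to 28330 in control libraries, and none of them was called. Among markers of other cells, the sums of 1 list did not overlap between the groups. Its 5 basophil and mast cell genes summed to 2151 to 4564 in Jmjd1c and 5605 to 8679 in control libraries. Of the 5, 1 fell, Prss34, which made up most of the sums, with means of 2720 in Jmjd1c and 5718 in control libraries. Mcpt8 was also lower in every Jmjd1c library than in any control library but did not pass, and Cpa3, Fcer1a and Ms4a2 overlapped. For 6 plasma and B cell genes the sums, which overlapped, were 2994 to 10844 in Jmjd1c and 8246 to 18251 in control libraries, and Igha fell. Igha and Ms4a1 were lower in every Jmjd1c library than in any control library, though Ms4a1 did not pass. Jchain, Igkc, Cd79a and Mzb1 overlapped. For 6 neutrophil genes the sums, which also overlapped, were 6818 to 9843 in Jmjd1c and 9829 to 13269 in control libraries, with none called. Camp, S100a8 and S100a9 were lower in every Jmjd1c library than in any control library, and Ltf, Ngp and Lcn2 overlapped. Such a separation downwards was seen in 7.10% of all tested genes. Each of these plasma, B cell and neutrophil genes had a log2 fold change below 0. Sums of 7 macrophage, 5 erythroid and 5 T cell genes overlapped as well, and none was called among those tested, which were all of the macrophage and erythroid genes and 2 of the T cell genes: 1523 to 2688, 1161 to 1424 and 349 to 590 in Jmjd1c libraries, against 1574 to 6911, 1005 to 1628 and 515 to 582 in control libraries. Car1, with means of 1054 in Jmjd1c and 1226 in control libraries, made up most of the erythroid sums. Lck, with means of 465 in Jmjd1c and 506 in control libraries, made up most of the T cell sums. Of the T cell markers Cd3e was at 0 in Jmjd1c 3 and no other listed marker was at 0 in any library. The part of these cells in the spliceosome results was not tested.

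Of the 3 factors that first read the branch point and the end of the intron, 2 rose, beside 1.51% of all tested genes called higher. All 3 were higher in every Jmjd1c library than in any control library, beside 9.74% of all tested genes. SF1 binds the branch point sequence before U2 arrives. Sf1 had 593, 768 and 825 normalized read counts in Jmjd1c libraries, against 513, 450, 443 and 461 in control libraries. The means were 729 ± 121 (SD, n = 3) in Jmjd1c and 467 ± 31.6 (SD, n = 4) in control libraries. It rose by 0.63 ± 0.11 on the log2 scale (standard error; limma, adjusted p = 0.0317). U2AF2 binds the pyrimidine tract next to the branch point. U2af2 was the least abundant of the called genes, with 153, 168 and 213 in Jmjd1c libraries, against 120, 121, 107 and 111 in control libraries. Its rise was 0.62 ± 0.13 (limma, adjusted p = 0.0413). U2AF1, the small subunit, contacts the AG at the intron end. U2af1 had 295, 284 and 366 in Jmjd1c libraries and 246, 281, 216 and 184 in control libraries. These groups were apart by little, and the difference of 0.45 ± 0.14 (95% interval 0.14 to 0.76) missed the threshold (adjusted p = 0.123, limma).

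Counting of U2af1, U2af2 and Sf1 reads has limits. The processed pseudogene Gm10232 matches 720 bases of the U2af1 transcript at 99.7% identity, so reads of U2af1 could be lost or shared, although Gm10232 itself averaged 10.2 normalized read counts. The processed pseudogene Gm5846 matches 1420 bases of U2af2 at 96.9% identity. The antisense gene Gm14966 overlaps Sf1, with means of 49.8 in Jmjd1c and 55.4 in control libraries, and the strand setting of the counting is not given in the sources used here.

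SF3A joins the U2 snRNP as a unit of SF3A1, SF3A2 and SF3A3. Of its 3 genes 2 rose, beside 1.51% of all tested genes called higher. Sf3a2 showed the largest difference of the 38 genes. It had 319, 403 and 565 normalized read counts in Jmjd1c libraries, against 207, 262, 189 and 226 in control libraries. Every Jmjd1c library was above every control library, and the 3 were spread widely. The rise was 0.92 ± 0.17 on the log2 scale, or 1.90-fold (limma, adjusted p = 0.0343). Sf3a1, whose protein also contacts U1, had 1221, 1399 and 1257 in Jmjd1c libraries and 1049, 1065, 962 and 977 in control libraries. It rose by 0.35 ± 0.07 (limma, adjusted p = 0.0376). Sf3a3 had 1099, 1063 and 956 in Jmjd1c libraries against 1031, 1063, 1098 and 1041 in control libraries, with the groups mixed. Its log2 fold change was -0.03, with a 95% interval of -0.17 to 0.12. Sf3a2 overlaps Plekhj1 on the other strand, for which the difference was 0.15 ± 0.08 on the log2 scale (limma, adjusted p = 0.324), with means of 427 in Jmjd1c and 385 in control libraries.

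SF3B, the part of U2 that clamps the branch point duplex, showed 1 rise among 6 genes, beside 1.51% of all tested genes called higher. SF3B4 binds the precursor RNA near the branch site. Sf3b4 had 459, 492 and 560 normalized read counts in Jmjd1c libraries, against 355, 340, 261 and 297 in control libraries. The groups were well apart, and the gene rose by 0.69 ± 0.11 (limma, adjusted p = 0.0317). The other 5 genes had log2 fold changes between -0.11 and 0.09 and did not pass. Sf3b1, whose protein forms the cage around the branch point, had 2602, 2556 and 2407 in Jmjd1c libraries and 2729, 2647, 2712 and 2689 in control libraries. All 3 Jmjd1c libraries lay below the control range, by a small margin, and the log2 fold change of -0.10 did not pass (limma, adjusted p = 0.357; 95% interval -0.22 to 0.02). Sf3b6 likewise had 939 to 1025 in Jmjd1c and 1028 to 1114 in control libraries (-0.11, limma adjusted p = 0.347). Sf3b2, Sf3b3 and Sf3b5 had log2 fold changes of 0.06, 0.09 and -0.04. Sf3b4 has an annotated processed pseudogene, Gm7935, that matches 1278 bases at 99.3% identity and averaged 1.75 normalized read counts. The antisense gene Gm17690, which overlaps Sf3b4, had means of 41.5 in Jmjd1c and 44.3 in control libraries.

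**Figure D2:**
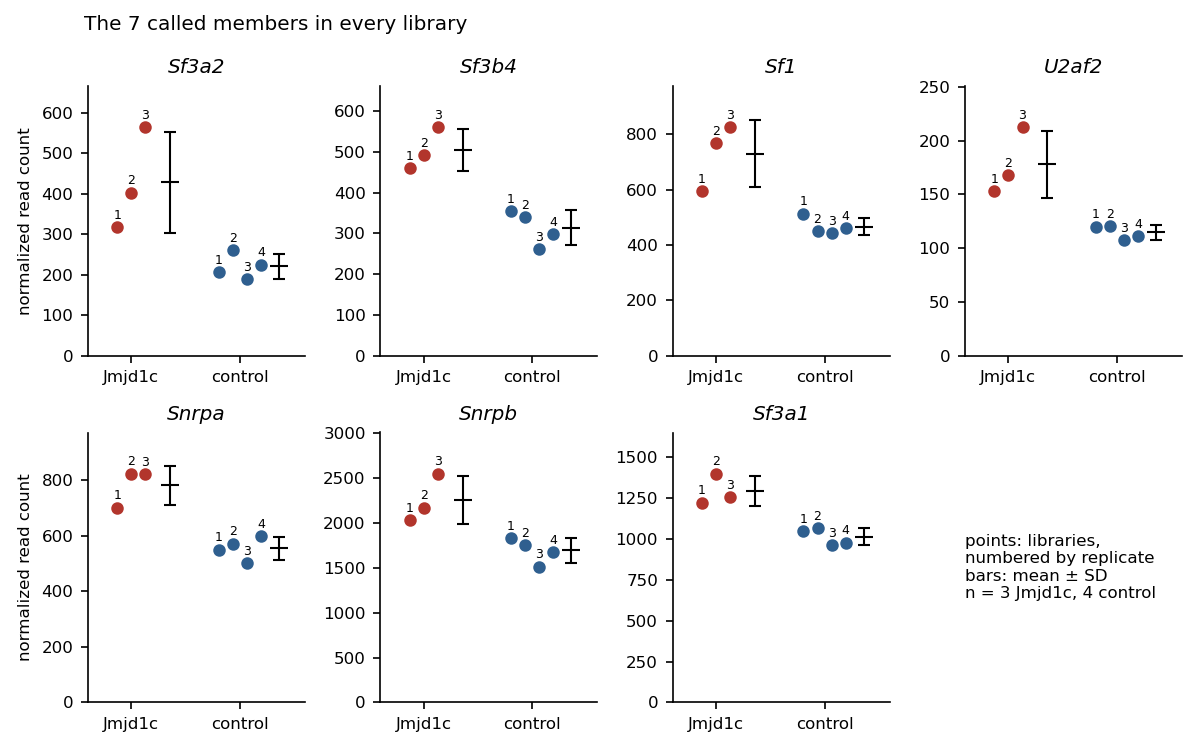
Normalized read counts (vertical axes from 0) of the 7 called genes in each library, Jmjd1c left and control right, points numbered by replicate, with mean ± SD beside them (n = 3 and 4). In each gene the 3 Jmjd1c libraries are above the 4 control libraries; Jmjd1c 1 is the lowest of its group in all 7 genes and control 3 the lowest of its own.

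The ring of Sm proteins, with 7 genes here, had 1 rise, that of Snrpb, beside 1.51% of all tested genes called higher. SNRPB gives the SmB proteins. Snrpb had 2033, 2170 and 2549 normalized read counts in Jmjd1c libraries, against 1831, 1755, 1512 and 1675 in control libraries. It rose by 0.41 ± 0.09 (limma, adjusted p = 0.0466), close to the threshold. Snrpf, for SmF, had 293, 279 and 339 in Jmjd1c libraries and 278, 252, 265 and 244 in control libraries. The groups barely separated, and its 0.22 ± 0.09 did not pass (limma, adjusted p = 0.222). Snrpd1, Snrpd2, Snrpd3, Snrpe and Snrpg had log2 fold changes of 0.03, -0.01, 0.02, -0.03 and -0.09. For Snrpd3, measured at 838 to 904 in Jmjd1c and 852 to 872 in control libraries, the 95% interval was -0.11 to 0.15. Reads of Snrpd1, Snrpd2, Snrpe, Snrpf and Snrpg are uncertain, because each has at least 1 annotated copy at 95% identity or more over at least 200 bases. Of these copies Gm8186, which matches 231 bases of Snrpg at 100% identity, averaged 93.2 normalized read counts.

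In U1, the particle that pairs with the start of the intron, 1 of 4 genes rose, beside 1.51% of all tested genes called higher. SNRPA binds a stem-loop of U1 RNA. Snrpa had 701, 823 and 822 normalized read counts in Jmjd1c libraries, against 550, 571, 501 and 599 in control libraries. It rose by 0.49 ± 0.09 (limma, adjusted p = 0.0317). Snrnp70, the gene of the U1-70K protein, had 237, 287 and 316 in Jmjd1c libraries and 232, 268, 188 and 185 in control libraries, which overlap. Its value of 0.36 ± 0.14 did not pass (limma, adjusted p = 0.197), and neither did Snrpc, for another U1-specific protein, at 0.15 ± 0.11. Prpf39, whose yeast relative belongs to U1, went the other way. It had 991, 922 and 874 in Jmjd1c libraries against 1040, 1034, 988 and 1090 in control libraries, and its -0.16 ± 0.07 did not pass (limma, adjusted p = 0.217). Processed pseudogenes of Snrpa, Gm21559 and Gm8655, match 855 bases of it at 95.2% and 95.1% identity. The gene BC024978 overlaps Snrpa on the other strand and differed by 0.38 ± 0.14 on the log2 scale (limma, adjusted p = 0.166).

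The U2-specific genes Snrpa1 and Snrpb2, for the A′ and B″ proteins, had log2 fold changes of 0.06 and -0.08. Snrpb2 had 487, 521 and 470 normalized read counts in Jmjd1c libraries and 513, 514, 508 and 554 in control libraries. Its groups overlapped and it did not pass (limma, adjusted p = 0.548). Of the 11 genes of SF3A, SF3B and these proteins, Sf3a1, Sf3a2 and Sf3b4 rose and the other 8 did not pass. Over all tested genes 1.51% were called higher. Whether the 3 differ from the 8 was not tested.

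The tri-snRNP genes gave no call in either direction, with a median log2 fold change of -0.02. The nearest to a rise were genes of the U5 core. Prpf8, whose protein cradles the catalytic RNA, had 839, 909 and 884 normalized read counts in Jmjd1c libraries, against 882, 694, 590 and 660 in control libraries. Control 1 lay within the Jmjd1c range, and 0.33 ± 0.11 did not pass (limma, adjusted p = 0.151). Without control 1 Prpf8 was called. Eftud2, the U5 GTPase, had 1557 to 1675 in Jmjd1c and 1336 to 1480 in control libraries, and its 0.19 ± 0.06 did not pass (limma, adjusted p = 0.139). Snrnp200, the helicase that unwinds U4 from U6, had 0.15 ± 0.10. The genes Prpf3, Prpf4, Prpf6 and Prpf31, for proteins of U4/U6 and the bridge to U5, had log2 fold changes between -0.07 and 0.03.

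Prpf4b, a kinase of the tri-snRNP, had the most negative value of the 38 genes. It had 504, 497 and 467 normalized read counts in Jmjd1c libraries, against 540, 555, 627 and 623 in control libraries. All Jmjd1c libraries were below all control libraries, and -0.26 ± 0.08 did not pass (limma, adjusted p = 0.111). Ddx23, the helicase that helps to release U1, was the scarcest member, with 60.4, 33.0 and 52.8 in Jmjd1c libraries and 51.2, 42.2, 66.4 and 61.2 in control libraries. Its -0.20 ± 0.24 (95% interval -0.72 to 0.32) is the least precise value of the set (limma, adjusted p = 0.672), and it turned to 0.05 without Jmjd1c 2.

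Later-acting factors gave no call. Prpf38a, a subunit of the B complex, had 434, 382 and 366 normalized read counts in Jmjd1c libraries, against 437, 465, 406 and 435 in control libraries (-0.15 ± 0.08; limma, adjusted p = 0.362). Prpf38b had 0.08 ± 0.09. Prpf19, a ubiquitin ligase needed for activation, had 325, 413 and 424 in Jmjd1c libraries, against 334, 369, 323 and 358 in control libraries, with a value of 0.16 ± 0.10 (limma, adjusted p = 0.426). Prpf18, which acts in the second step, had -0.10 ± 0.08. In all 4 genes the groups overlapped.

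Levels differed among the members far more than between the groups. Per kilobase of exon, Snrpb was the highest in both groups, at 1139 normalized read counts in Jmjd1c and 857 in control libraries. Snrpe and Sf3b2 followed, at 527 and 503 in Jmjd1c and 538 and 481 in control libraries. Ddx23 was last in both groups, at 7.82 in Jmjd1c and 8.87 in control libraries, and U2af2 was the next above it in control libraries at 27.9, against 43.2 in Jmjd1c libraries. The called genes thus took in both the highest member per length and one of the lowest.

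**Figure D3:**
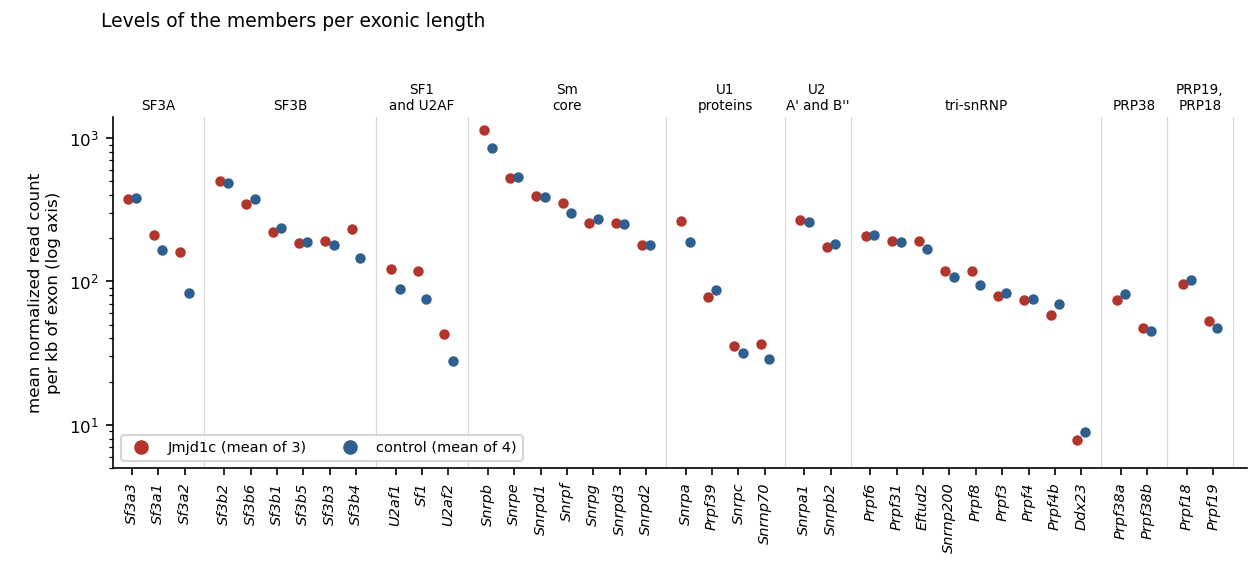
Mean normalized read count per kilobase of exon (log axis) of the 38 genes by subset, Jmjd1c left and control right of each gene's position. Snrpb is highest, at 1139 in Jmjd1c and 857 in control libraries, and Ddx23 lowest, at 7.82 in Jmjd1c and 8.87 in control libraries.

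GC content went with the fold change across the members. The longest annotated transcripts of the 7 called genes held 50% to 62.2% GC, with a median of 53.9%, while the 31 other members had a median of 46.4% and all tested genes one of 49.4%. Across the 38 genes Pearson's r between fold change (log2) and GC content was 0.705 (Spearman's rho 0.656), beside 0.264 over all tested genes (rho 0.299). These are descriptions across genes measured in the same 7 libraries. With a correction of each library for GC content and transcript length, 3 members were called, Sf1 (0.50), Snrpa (0.54) and Sf3b4 (0.59), where 0.521% of all tested genes were called (limma). Sf3a2 had 0.65, Sf3a1 0.32, U2af2 0.56 and Snrpb 0.46, with limma adjusted p-values of 0.0608, 0.0665, 0.0665 and 0.0524. With GC content alone corrected, a setting added after the data were seen, 5 members were called, Sf3a1 (0.38) and Sf3a2 (0.69) among them. In that fit 0.805% of all tested genes were called. Whether GC content had a part in the rises beyond this was not tested.

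**Figure D4:**
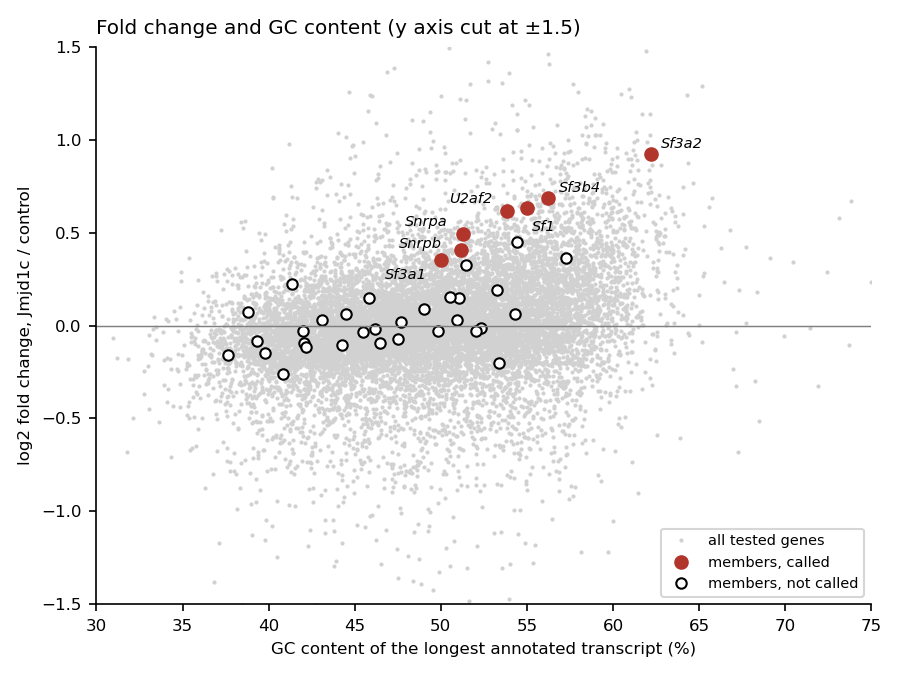
Log2 fold change (Jmjd1c over control) against GC content of the longest transcript for all tested genes (grey), the 7 called members (red) and the 31 others (open). The called members lie at 50% GC or more, from Sf3a1 (0.35) to Sf3a2 (0.92); the vertical axis ends at 1.5 on either side of 0.

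The number of calls changed with the libraries kept. The direction of the 7 genes could not change, because in each of them every Jmjd1c library lay above every control library. Without any 1 of Jmjd1c 2, Jmjd1c 3, control 2 and control 3, no member was called, and in those 4 fits only 3, 9, 3 and 3 genes of the whole table were called (limma). In each of these fits all 7 had an unadjusted limma p under 0.05, among 10, 11, 12 and 12 members. So did 1683, 1750, 2257 and 1947 of all genes. The 7 genes were picked for small p-values in these same libraries, so this is no separate support. Without control 1 there were 3 called members (Sf1, Sf3b4 and Prpf8), beside 0.531% of all tested genes called in that fit. Without control 4 the 4 called members stand beside 1.58%, and without Jmjd1c 1 all 7 were called, beside 4.87%. Over these 7 fits the log2 fold change of Sf3a2 ran from 0.71 to 1.12, that of Sf1 from 0.53 to 0.77 and that of Sf3a1 from 0.29 to 0.39.

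**Figure D5:**
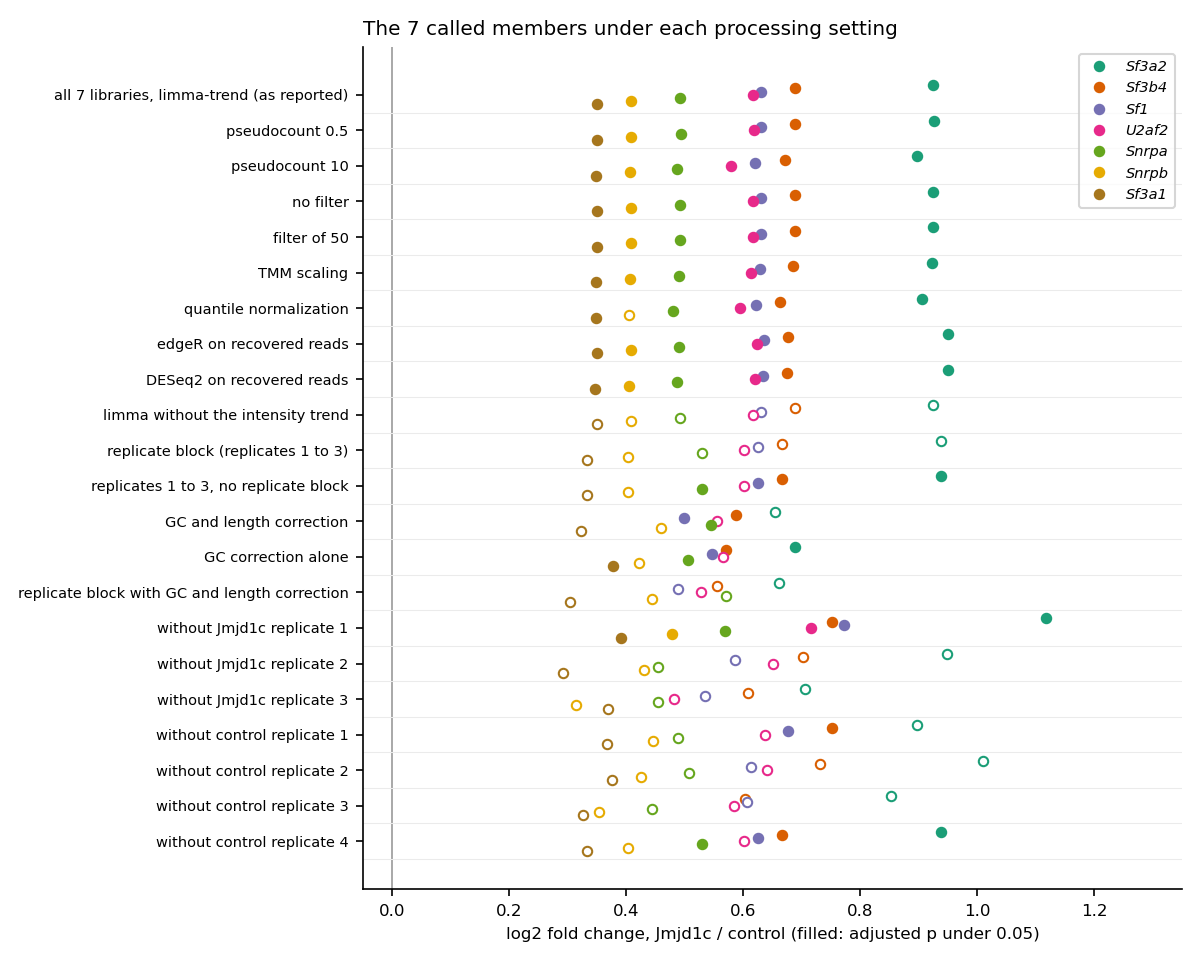
Log2 fold change (Jmjd1c over control) of the 7 called members under each processing setting, one colour a gene, filled where the adjusted p was under 0.05. The values stay between 0.29 and 1.12, while the number of filled points ranges from 7 to 0.

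The same libraries were high and low in gene after gene. Jmjd1c 1 was the lowest Jmjd1c library in all 7 called members and in 93.8% of the 194 genes called higher in the whole table. Jmjd1c 3 was the highest in 5 of the 7 and in 72.7% of the 194. Among controls, control 3 was the lowest in all 7 members and in 42.3% of the 194. The 194 include the 7, and the order over all tested genes was not counted.

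Other genes of the splicing pathway, 90 in 9 lists, gave a single call. Of the 89 tested, 1 rose and none fell (1.12%, near the 1.80% of all genes), with a median log2 fold change of -0.01. Gemin4, at 1.17 to 3.09 in Jmjd1c and 1.75 to 4.83 in control libraries, did not pass the filter on low values. The gene that rose was Cherp, whose protein associates with the U2 snRNP. It had 932, 1153 and 975 normalized read counts in Jmjd1c libraries, against 744, 730, 737 and 773 in control libraries, a rise of 0.44 ± 0.08 (limma, adjusted p = 0.0317). Corrected for GC and length, it had 0.26 and was not called. Of the 89 genes 44 had a fold change above 0, beside 48.5% of all tested genes. By list, these were 8 of 9 other U2 and 3′ splice site proteins, 1 of 7 other U1 proteins, 2 of 7 LSm proteins, 6 of 16 other tri-snRNP and B complex proteins, 7 of 17 of the Prp19 complex, 4 of 7 helicases and step 2 factors, 3 of 9 minor spliceosome proteins, 9 of 12 snRNP assembly factors and 4 of 5 of the exon junction complex.

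In the 8 lists without a call, the genes with the smallest p-values lay on both sides of 0, and none of them passed. Sart1 and Dhx16, a tri-snRNP protein and a helicase of activation, had 0.83 ± 0.24 and 0.74 ± 0.18 (limma, adjusted p = 0.0968 and 0.0603). Sart1 was scarce, at 60.4 to 116 in Jmjd1c and at most 54.4 in control libraries. Gemin5, which recognises snRNAs for assembly by SMN, had 0.53 ± 0.14 and Lsm2, of the U6 ring, 0.34 ± 0.10 (limma, adjusted p = 0.0724 and 0.0977). On the other side were Luc7l2, a relative of a yeast U1 protein, at -0.38 ± 0.10, Bud31, of the activated spliceosome, at -0.28 ± 0.10, and Zrsr1, of the minor spliceosome, at -0.52 ± 0.22 (limma, adjusted p = 0.0779, 0.153 and 0.227). Eif4a3, the helicase of the exon junction complex, had 0.06 ± 0.06 (limma, adjusted p = 0.609).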

How the data were processed

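RNA from LSK cells was made into libraries with a SMARTer low-input and an Illumina paired-end kit, per the labels. Trim Galore 0.2.8, STAR, HTSeq 0.6.1p1, DESeq 1.18.0 and mm10 are named in the submitters' processing notes; filters and strand: not given in the sources used here. The deposited values are a normalized signal per gene. In each library they are whole multiples of 1 step (100% of values within 0.01 of a whole number), as read counts divided by a size factor are, and whole reads were recovered from them.

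Values were tested as log2(value + 1) in limma-trend 3.58.1 (R 4.3.3), 3 Jmjd1c against 4 control libraries, for genes with at least 10 in at least 3 libraries, with Benjamini-Hochberg adjustment over all of them. Errors beside fold changes are limma standard errors, and fold changes on this scale understate those of low genes. edgeR 4.0.16 and DESeq2 1.42.0 on the recovered reads were alternatives, as were other pseudocounts, filters, scalings, corrections and left-out libraries. The steps were tested on simulated counts. Replicate libraries differed by more than counting noise. Exon lengths, GC content, positions and overlaps came from GENCODE M21 (GRCm38), promoters from RefSeq. Copies are other genes with transcripts matching at 95% identity or more over at least 200 bases.

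The members and lists were chosen with earlier results of these data known. By rule, members past the threshold, the 3 largest and 3 smallest fold changes and the smallest p of each subset are given in full; of the other pathway genes, those called, or the smallest p of a list with none. U2af1, Sf3a3, Sf3b1, Snrpf, Snrnp70 and Prpf8, also given in every library, were chosen after their values were seen.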

Additional observations from a re-analysis of the deposited data

Results flagged for a closer look

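Control 4 stood apart from the other control libraries in 2 of 56 quantities checked over the 4 control libraries; chance flags about 1 in 20. Over the whole table its counts also differed from those of controls 1 to 3 by more than these differed among themselves (chi-square per gene of 8.22 to 15.2 against 3.38 to 4.40). Snrpb2 had 553.5 normalized read counts in control 4 and 508 to 514 in controls 1 to 3. The summed macrophage markers were 6911 in control 4. The Jmjd1c libraries had 1523 to 2688, and the other control libraries 1574 to 2373. Without control 4 the 4 called members were Sf3a2, Sf3b4, Sf1 and Snrpa, beside 1.58% of all tested genes called.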

How the results depend on the processing

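The 7 calls held with pseudocounts of 0.5 and 10, without the filter, with a filter of 50, with TMM scaling, in edgeR and in DESeq2. Quantile normalization kept 6, without Snrpb, beside 1.42% of all tested genes called. No member was called lower in any setting. Counts of all called genes (higher, lower) were 590 (473, 117) in DESeq2 and 716 (542, 174) at the threshold of 0.1. Corrected for GC and length they were 66 (50, 16), with 3 members, and for GC content alone 102 (78, 24). In limma without the intensity trend no gene was called, with 2213 genes and 11 members at an unadjusted p under 0.05, and Jmjd1c had -0.89 (adjusted p = 0.117). Leaving out each library gave 0 to 7 members and 3 to 624 genes (0 to 511 higher, 3 to 113 lower).

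The labels number replicates 1 to 3 in both groups. Deviations of same-numbered libraries correlated at -0.15, -0.002 and 0.02, and these libraries did not correlate best with their own number. With so few libraries this cannot decide whether the numbers pair them. With the number as a replicate block (6 libraries) limma called 0 members and 16 genes (9, 7). In that fit 11 members had an unadjusted limma p under 0.05, as did 1904 of the 12813 tested genes. The same 6 libraries without the block gave 4 members, beside 1.58% of all tested genes. The replicate block with GC and length correction gave 0 members and 35 genes (19, 16). The block with corrections, these 6 libraries without the block and GC correction alone were chosen after seeing the data. The causes were not tested.

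Medians that changed with the processing included the following, all but the tri-snRNP beyond their range when single libraries were left out. Corrected for GC and length they were 0.089 for all members, 0.23 for the Sm genes, 0.12 for Snrpa1 and Snrpb2, and 0.091 for the Prpf38 pair. For GC content alone they were 0.082 for all members, 0.084 for Snrpa1 and Snrpb2, 0.024 for the tri-snRNP and 0.10 for the Prpf38 pair. With the block and both corrections they were 0.21 (Sm), 0.10 (Snrpa1 and Snrpb2) and 0.052 (Prpf38 pair). The tri-snRNP median was -0.041 with quantile normalization. Both this value and the one for GC content alone lie within its range of -0.051 to 0.037 without each library.

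Sign changes were confined to members that were not called. For the 7 called genes, leaving out a library could not change the sign, because their groups did not overlap. GC and length correction turned Sf3a3 (0.030), Sf3b2 (-0.032), Sf3b6 (0.035), Snrpd2 (0.041), Snrpe (0.23), Snrpg (0.064) and Snrpb2 (0.083). With the block added, the turned values were 0.012 for Sf3a3, -0.064 for Sf3b2, 0.050 for Snrpd2, 0.22 for Snrpe, 0.038 for Snrpg and 0.084 for Snrpb2. GC correction alone turned Sf3b2 (-0.0016), Sf3b5 (0.012), Snrpe (0.057), Prpf39 (0.00088), Snrpb2 (0.047) and Prpf4 (0.024). Snrpd2 was 0.0066 over replicates 1 to 3, with or without the block. Over the 7 fits that leave out 1 library, values that took both signs ran from -0.070 to 0.031 for Sf3a3, -0.068 to 0.014 for Sf3b5, -0.089 to 0.075 for Snrpd2, -0.0034 to 0.051 for Snrpd3, -0.15 to 0.052 for Prpf3, -0.067 to 0.043 for Prpf4, -0.076 to 0.011 for Prpf6 and -0.38 to 0.052 for Ddx23.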

Other observations

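Some genes start close to a member or overlap it. Ccdc157, whose start lies 57 bases from that of Sf3a1 on the other strand, had means of 18.7 normalized read counts in Jmjd1c and 14.4 in control libraries, and its difference of 0.39 ± 0.29 (log2) did not pass (limma, adjusted p = 0.480). Orc1, 87 bases from the start of Prpf38a, had 0.15 ± 0.13 (limma, adjusted p = 0.568), Cdc26, beside Prpf4, had -0.18 ± 0.09 (limma, adjusted p = 0.302), and Cog4, 187 bases from Sf3b3, had -0.17 ± 0.07 (limma, adjusted p = 0.225). Samd10, which overlaps Prpf6 on the other strand, had 69.4 in Jmjd1c and 44.1 in control libraries and a difference of 0.65 ± 0.18 on the log2 scale (limma, adjusted p = 0.0920), while Prpf6 itself had -0.03. These neighbours were picked from those that overlap or adjoin a member after their values were seen.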
